A study of Mus musculus with 6 samples.

Results

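The acute-phase genes examined here are Saa1, Saa2, Saa3, Lcn2, Hp, Orm1, Ptx3 and Cp, 8 genes chosen by name. They were found through the gene symbols of the array platform's annotation and are carried by 11 of the 16281 features (spotted probes) of the array. All 8 were among the 10698 genes with a symbol and among the 10088 genes that could be tested. RNA came from RAW 264.7 cells, a mouse macrophage cell line, that spent 8 h in culture, either left alone or exposed to lipopolysaccharide (LPS, the Gram-negative outer membrane component sensed by Toll-like receptor 4) at 100 ng/ml together with LPS-binding protein, a serum protein that hands LPS to CD14, at 100 pM. Both RNAs were labelled with different dyes and put on the same array, and the 6 arrays formed 3 numbered sets. In every set the treated RNA carried Cy5 on one array and Cy3 on the other. The table holds 1 log2 ratio per feature and array, so it shows changes and no levels, and neither the macrophage identity of the cells nor the abundance of any transcript could be checked from it.

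Acute-phase proteins are plasma and tissue proteins whose synthesis changes during inflammation. Most of the circulating supply is made by hepatocytes under the control of interleukin-6 and interleukin-1, which act through STAT3, C/EBP factors and NF-kappaB. Some family members are also made where the infection is, by macrophages, neutrophils and epithelia. Of the 8 genes, Saa3, Lcn2 and Ptx3 are the macrophage-made members. Saa3 is the serum amyloid A form of macrophages and fat tissue, Lcn2 encodes lipocalin-2, which withholds iron from bacteria by binding their siderophores, and Ptx3 encodes a long pentraxin that opsonises microbes. Saa1, Saa2, Hp, Orm1 and Cp are the liver-type members, some of which myeloid cells make as well. Saa1 and Saa2 encode the serum amyloid A forms carried on high-density lipoprotein, Hp encodes haptoglobin, which binds free haemoglobin, Orm1 encodes the plasma carrier alpha-1-acid glycoprotein, and Cp encodes ceruloplasmin, a copper oxidase that helps load iron onto transferrin.

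Treated cells had higher transcript ratios for 6 of the 8 genes, and none of the 8 was lower. Saa3 rose by far the most, 15.5-fold, followed by Cp at 2.76-fold and Saa1 at 2.68-fold. Lcn2 rose 1.56-fold, Hp 1.32-fold and Orm1 1.17-fold, while Saa2 and Ptx3 did not pass the test. The test was limma's moderated test of the 3 set means against 0, with Benjamini-Hochberg adjustment over all genes and a threshold of 0.05. By the same rule 34.2% of all genes tested passed, 17.3% higher and 16.8% lower, and the 8 genes were chosen with earlier results of these data known, so the count of 6 carries no test of its own. The median log2 ratio of the 8 was 0.52, beside -0.01 over all genes tested. A rise here means treated over untreated, a direction that is likely but not stated in the table. Ratios were taken to be Cy5 over Cy3, since on each array the label names the Cy3 RNA the control. Nothing in the labels ties the sets to separate cultures, so a p-value measures the spread from set to set and may reflect technical error alone. Both arrays of a set tended to deviate in opposite directions once turned (r of -0.256, -0.212 and -0.0999), so averaging them narrows the spread between sets, and the SDs and p-values can be too small.

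**Figure D1:**
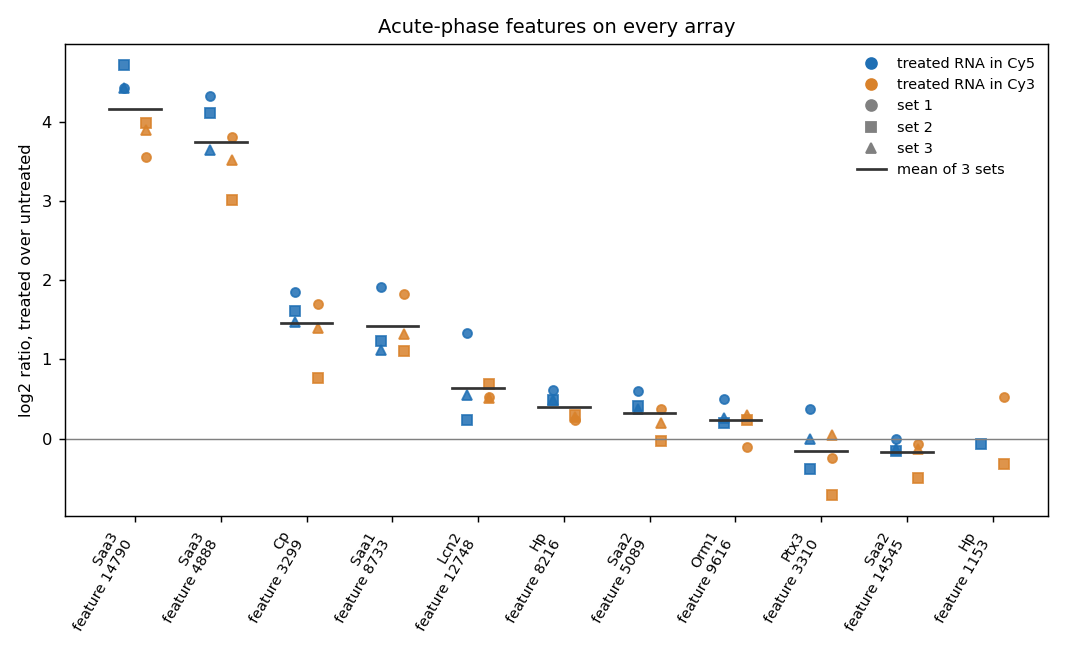
Log2 ratio (treated over untreated, vertical axis) of the 11 acute-phase features (horizontal axis) on each array, coloured by the dye of the treated RNA and shaped by set; bars are means of the 3 sets, and values of exactly 0 are not drawn. Both Saa3 features lie between 3.01 and 4.71 on all 6 arrays, above every other feature, whose values run up to 1.91.

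Macrophage-made and liver-type members overlapped in the size of their ratios. Among the 3 macrophage-made genes, log2 ratios ran from 3.95 for Saa3 through 0.64 for Lcn2 to -0.16 for Ptx3. The 5 liver-type genes lay between Saa3 and Ptx3, from 1.46 for Cp to 0.08 for Saa2. Of the macrophage-made genes 2 of 3 rose, and of the liver-type genes 4 of 5 rose. The medians were 0.64 and 0.40. Saa3 stood above its neighbour Cp by 2.49 ± 0.26 on the log2 scale (SD, n = 3 sets). Cp and Saa1 could not be put in order, since their difference was 0.04 ± 0.16 and changed sign between sets. Saa1 exceeded Lcn2 by 0.78 ± 0.14, and Hp exceeded Orm1 by 0.17 ± 0.07, in 3 of 3 sets each. The order of Hp and Orm1 was less firm. With zeros kept as values they stood at 0.21 and 0.23, and on the Cy3 array of set 3 at 0.27 and 0.30. Lcn2 exceeded Hp by 0.24 ± 0.23 and Saa2 exceeded Ptx3 by 0.23 ± 0.22, differences about as large as their spread. Orm1 and Saa2 differed by 0.15 ± 0.16, with 1 set in the opposite direction. An exact sign permutation test over 3 sets cannot go below p = 0.25, so these differences were compared with their spread only.

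**Figure D2:**
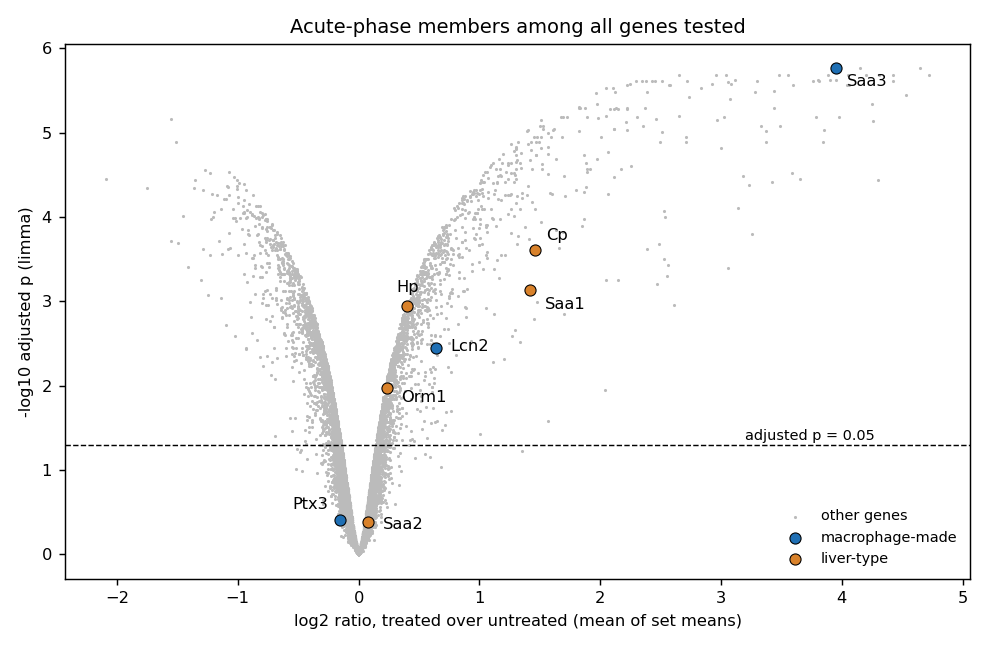
Mean log2 ratio (horizontal axis) and -log10 of limma's adjusted p (vertical axis) of the 10088 genes tested, in grey, with the macrophage-made members in blue and the liver-type members in orange; the dashed line is an adjusted p of 0.05. Saa3 lies at the far right at 3.95, and Ptx3 and Saa2 lie below the line.

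The serum amyloid A genes sit next to each other on chromosome 7, and the mouse genome carries Saa1 and Saa2 as near-identical, divergently transcribed copies. The 250 bases before the RefSeq transcription start (build GRCm38.p6, 5′ to 3′ on the gene's strand) are shown for the 3 members because their ratios differed while Saa1 and Saa2 are preceded by almost the same sequence. They lie at chr7:46715677-46715926, minus strand for Saa3, at chr7:46742981-46743230, minus strand for Saa1 and at chr7:46751583-46751832, plus strand for Saa2. The starts are those of RefSeq's promoter table. The start used for Saa3 lies 3939 bases inside the gene's RefSeq row and that for Saa1 lies 201 bases inside it, so these stretches need not precede the gene's first start, while for Saa2 the start and the row's end coincide. Capitals mark matches on either strand to GGGNNNNNCC, a loose form of the NF-kappaB element, or to TTNNGNAA, a loose form of the C/EBP element, where N is any base.
Saa3: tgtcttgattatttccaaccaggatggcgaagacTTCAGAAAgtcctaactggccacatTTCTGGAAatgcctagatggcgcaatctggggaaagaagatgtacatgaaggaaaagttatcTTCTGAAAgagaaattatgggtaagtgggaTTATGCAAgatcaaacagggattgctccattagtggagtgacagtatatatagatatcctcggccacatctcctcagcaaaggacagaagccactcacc
Saa1: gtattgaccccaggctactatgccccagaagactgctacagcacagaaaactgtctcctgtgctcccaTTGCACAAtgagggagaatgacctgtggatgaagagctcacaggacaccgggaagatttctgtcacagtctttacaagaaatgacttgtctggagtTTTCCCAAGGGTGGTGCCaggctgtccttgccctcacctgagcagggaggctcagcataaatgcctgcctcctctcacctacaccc
Saa2: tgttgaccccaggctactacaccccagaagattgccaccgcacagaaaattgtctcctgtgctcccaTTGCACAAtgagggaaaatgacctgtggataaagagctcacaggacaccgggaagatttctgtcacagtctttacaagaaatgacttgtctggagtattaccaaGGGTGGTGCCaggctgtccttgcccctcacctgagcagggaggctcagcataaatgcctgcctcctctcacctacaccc
In a global alignment, Saa1 and Saa2 were identical in 238 of 251 columns (94.8%), whereas Saa3 matched Saa1 in 52.2% and Saa2 in 52.4% of columns. The Saa3 stretch held 4 C/EBP matches and 0 NF-kappaB matches. Saa1 held 2 C/EBP matches and 1 NF-kappaB match, and Saa2 held 1 of each. The 2 motifs overlapped in no member, though in Saa1 a match of each kind stands side by side in 1 run of capitals. Among all 32851 RefSeq promoter entries of this length, 45.8% held an NF-kappaB match and 36.8% a C/EBP match, so such matches are common and only describe the sequence.

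Saa3 was measured by 2 features. Feature 14790 read 4.43, 4.71 and 4.42 on the log2 scale with treated RNA in Cy5 (sets 1, 2 and 3) and 3.55, 3.98 and 3.89 with treated RNA in Cy3. Feature 4888 read 4.32, 4.11 and 3.65 with treated RNA in Cy5 and 3.80, 3.01 and 3.52 with treated RNA in Cy3. All 12 values were high, and those in Cy5 lay above those in Cy3 for feature 14790, while the ranges overlapped for feature 4888. Averaged over both features, the log2 ratio of Saa3 was 3.95 ± 0.08 (SD, n = 3 sets; SE 0.05, limma's adjusted p = 1.72e-06), the 16th highest of 10088 genes. By feature it was 4.16 ± 0.18 for 14790 and 3.74 ± 0.28 for 4888. From set 1 to set 2 the former rose and the latter fell, so their average had a smaller spread than either. Feature 4888 was lower than feature 14790 by 0.43 ± 0.44, on 5 of 6 arrays, a difference no larger than its spread over sets. The dye orientations differed for Saa3, with means of 4.27 in Cy5 and 3.63 in Cy3 (difference 0.65, limma's adjusted p = 0.0479 for the dye term, which 4.06% of genes passed). Both orientations kept Saa3 far above the other members.

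Saa1 had 1 feature, 8733. It read 1.91, 1.23 and 1.12 with treated RNA in Cy5 and 1.83, 1.11 and 1.33 with treated RNA in Cy3. Both arrays of set 1 were higher than the other 4, and the orientations had the same mean of 1.42. The log2 ratio of Saa1 was 1.42 ± 0.39 (SD, n = 3 sets; SE 0.14, limma's adjusted p = 0.000741), higher on 6 of 6 arrays. It was below Saa3 by 2.53 ± 0.33, and the gap had the same sign on 6 of 6 arrays.

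Saa2 had 2 features that disagreed. Feature 5089 read 0.60, 0.41 and 0.38 in Cy5 and 0.38, -0.03 and 0.20 in Cy3. Feature 14545 read -0.01, -0.15 and -0.13 in Cy5 and -0.06, -0.49 and -0.13 in Cy3. The first was above 0 on 5 of 6 arrays and the second was below 0 on 6 of 6. Tested among all features, of which 17.1% were higher, feature 5089 rose by 0.32 ± 0.15 (SD, n = 3 sets, limma's adjusted p = 0.0138), and feature 14545 stood at -0.16 ± 0.15 (adjusted p = 0.117). The gap between them was 0.49 ± 0.06 and had the same sign on 6 of 6 arrays. Their average, 0.08 ± 0.15 (adjusted p = 0.408), therefore stands for neither. The Saa1 feature exceeded features 5089 and 14545 by 1.10 ± 0.25 and 1.59 ± 0.29, on 6 of 6 arrays each. In RefSeq's list of other names, Saa2 is an older name of Saa1 and Saa1 an older name of Saa2. Which copy a feature reports is therefore uncertain, and hybridisation of 1 transcript to features of the other was not tested, because feature sequences were not used here. Saa4, another gene of the cluster that encodes the constitutive form, read -1.20, -0.36 and -0.26 in Cy5 and 0.69, -0.01 and -0.14 in Cy3. Its log2 ratio was -0.21 ± 0.04 (SD, n = 3 sets, limma's adjusted p = 0.0139). The call rests on set means in which opposite readings of both dyes were averaged, and in Cy3 alone the mean was 0.18 (adjusted p = 0.525). Without set 3 it stood at -0.22 (adjusted p = 0.0929). Over the 6 arrays with a dye term it did not pass either (adjusted p = 0.372, and 0.524 with the replicate block).

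**Figure D3:**
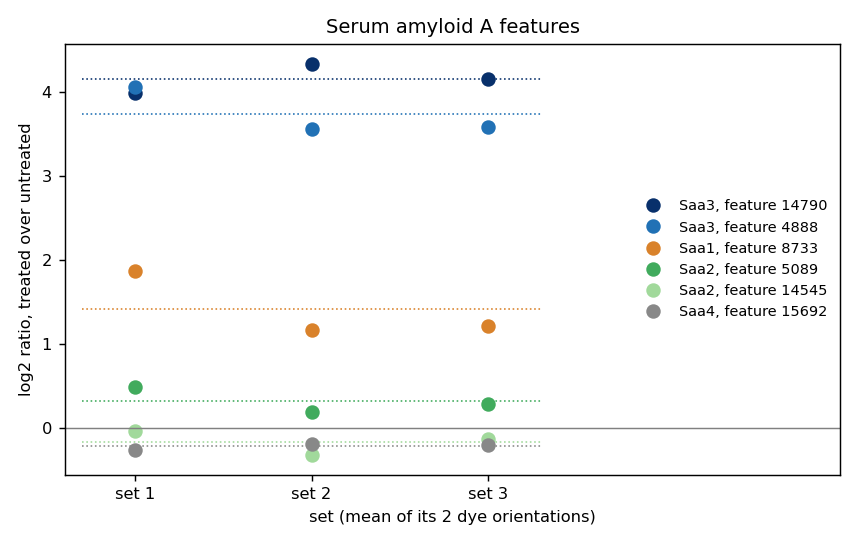
Set means of the log2 ratio (treated over untreated, vertical axis) of each serum amyloid A feature in the 3 sets (horizontal axis); each point averages both dye orientations of a set, and dotted lines are means over sets. The Saa3 features lie near 4, Saa1 between 1.17 and 1.87, and the Saa2 features on either side of 0.

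Lcn2 and Ptx3, the other macrophage-made genes, had small ratios beside that of Saa3. The 250 bases before their starts are shown so that they can be set beside Saa3, from chr2:32387740-32387989, minus strand for Lcn2 and chr3:66219637-66219886, plus strand for Ptx3 (GRCm38.p6, 5′ to 3′ on the gene's strand, with the same matches in capitals).
Lcn2: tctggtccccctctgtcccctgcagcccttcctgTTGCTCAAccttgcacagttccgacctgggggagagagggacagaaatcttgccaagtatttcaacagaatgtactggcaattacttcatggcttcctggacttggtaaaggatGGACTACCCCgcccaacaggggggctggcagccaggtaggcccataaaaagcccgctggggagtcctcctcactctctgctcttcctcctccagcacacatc
Ptx3: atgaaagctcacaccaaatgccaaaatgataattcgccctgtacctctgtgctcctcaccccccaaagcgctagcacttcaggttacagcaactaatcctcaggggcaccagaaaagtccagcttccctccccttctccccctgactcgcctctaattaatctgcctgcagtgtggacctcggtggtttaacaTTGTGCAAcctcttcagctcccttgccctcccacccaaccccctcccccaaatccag
Lcn2 held 1 NF-kappaB and 1 C/EBP match, and Ptx3 held 1 C/EBP match and 0 NF-kappaB matches. Both starts coincide with the ends of the RefSeq rows, whereas that of Saa3 lies 3939 bases inside its row, so the stretches are not fully alike. Cp had 2 promoter entries, not shown, with 1 C/EBP match in the first and 1 match of each kind in the second. The Lcn2 feature, 12748, read 1.33, 0.24 and 0.56 with treated RNA in Cy5 and 0.52, 0.69 and 0.51 with treated RNA in Cy3. The Cy5 array of set 1 was the highest and the Cy5 array of set 2 the lowest, and the other 4 lay close together. The log2 ratio of Lcn2 was 0.64 ± 0.25 (SD, n = 3 sets; SE 0.09, limma's adjusted p = 0.00355), higher on 6 of 6 arrays. On the Cy5 arrays alone its mean was 0.71 with an adjusted p of 0.0664, so the call was lost there. Without set 1 the log2 ratio was 0.50.

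The Ptx3 feature, 3310, read 0.37, -0.39 and -0.01 in Cy5 and -0.24, -0.71 and 0.04 in Cy3. Both arrays of set 2 were below 0, and the values of sets 1 and 3 lay on both sides of it. The log2 ratio was -0.16 ± 0.34 (SD, n = 3 sets; SE 0.12, limma's adjusted p = 0.386), and without set 2 it was 0.04 (adjusted p = 0.66). Lcn2 exceeded Ptx3 by 0.80 ± 0.25 on 6 of 6 arrays. A change in Ptx3 was thus not detectable with these arrays.

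Cp shared with Saa1 the larger rises among the liver-type genes. Its feature, 3299, read 1.85, 1.61 and 1.47 with treated RNA in Cy5 and 1.70, 0.76 and 1.40 with treated RNA in Cy3. All 6 arrays were higher, and the Cy3 array of set 2 stood below the rest. The log2 ratio of Cp was 1.46 ± 0.29 (SD, n = 3 sets; SE 0.11, limma's adjusted p = 0.000248). Cp exceeded Lcn2 by 0.82 ± 0.09 and Ptx3 by 1.62 ± 0.18, on 6 of 6 arrays each, so this liver-type gene had a higher ratio than both of these macrophage-made genes.

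Hp was carried by 2 features, of which 1 was measured throughout. Feature 8216 read 0.62, 0.49 and 0.49 in Cy5 and 0.24, 0.30 and 0.27 in Cy3. Every array was above 0, and the 3 Cy5 values lay above the 3 Cy3 values. Its log2 ratio was 0.40 ± 0.03 (SD, n = 3 sets; SE 0.04, limma's adjusted p = 0.00113), and the means by dye were 0.53 and 0.27 (adjusted p = 0.0786 for the dye term). Feature 1153 was listed at exactly 0 on 3 arrays, which was treated as not measured, and read -0.06, 0.53 and -0.31 on the other 3. It did not enter the value of Hp. With zeros kept and both features averaged, Hp stood at 0.21 (adjusted p = 0.0491).

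Orm1 had the smallest rise that passed. Feature 9616 read 0.50, 0.19 and 0.26 in Cy5 and -0.10, 0.24 and 0.30 in Cy3. The Cy5 array of set 1 was the highest and the Cy3 array of the same set the lowest, the only 1 of 6 below 0. The log2 ratio of Orm1 was 0.23 ± 0.04 (SD, n = 3 sets; SE 0.05, limma's adjusted p = 0.0106). The call was lost without set 3 (0.21, adjusted p = 0.106) and in Cy3 alone (0.14, adjusted p = 0.355). It was also lost with the set number as a replicate block over 6 arrays (0.23, adjusted p = 0.123). The related genes Orm2 and Orm3, named as copies of Orm1, had log2 ratios of -0.05 ± 0.18 (n = 2 sets) and -0.01 ± 0.12 (n = 3 sets). These copies are closely related, and cross-hybridisation between their features was not tested.

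Most other plasma acute-phase genes did not pass the test. Counts of this and the following lists stand beside 17.3% of all genes tested that rose and 16.8% that fell. Of 47 listed, 31 were tested. The list is broader than its name and also holds a metallothionein, neuronal pentraxins and the constitutive Saa4. Of these, 3 (9.68%) rose and 1 fell, and their median stood at 0.02. Cfb, complement factor B of the alternative pathway, rose by 2.53 ± 0.39, and Mt2, a metal-binding metallothionein, rose by 1.21 ± 0.24 (SD, n = 3 sets; limma's adjusted p = 8.41e-05 and 0.000283). The third was Nptx2, a neuronal pentraxin (0.16 ± 0.06, adjusted p = 0.0437), with a mean of -0.22 in Cy3 alone and adjusted p of 0.0646 without set 2 and 0.284 without set 3. Over the 6 arrays with a dye term its adjusted p was 0.453, and 0.588 with the replicate block. Saa4 was the member that fell. Lbp, which encodes the protein added to the medium, stood at 0.04 ± 0.32 (adjusted p = 0.813), and at 0.22 without set 2 (adjusted p = 0.0214). Among the negative acute-phase and hepatocyte genes, 1 of 16 (6.25%) rose and 0 fell, with a median of 0.00. It was Serpinc1, antithrombin, at 0.73 ± 0.11 (adjusted p = 0.000309). The albumin gene Alb stood at 0.24 ± 0.27 (adjusted p = 0.117), and at 0.40 without set 1 (adjusted p = 0.00436), and passed with the replicate block (adjusted p = 0.0469), while Hnf4a, a master factor of hepatocytes, was at -0.08 ± 0.12 (adjusted p = 0.352).

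Cytokines, receptors and factors that control acute-phase synthesis were tested in 39 cases, of which 21 (53.8%) rose and 2 fell, and the median was 0.32. The list holds drivers and also inhibitors, such as Il1rn and Socs3, so its count is not one of drivers alone. Il1b rose by 3.85 ± 0.33 and Il6 by 3.26 ± 0.62, the cytokines that induce acute-phase genes in liver. Il1rn, the interleukin-1 receptor antagonist, rose by 3.95 ± 0.17. Cebpd, the C/EBP factor induced in inflammation, rose by 1.89 ± 0.09, whereas Cebpb rose by 0.32 ± 0.02. Cebpa, the C/EBP factor of resting myeloid cells, fell by 0.31 ± 0.14 (limma's adjusted p = 0.0131, with 0.0867 without set 3 and 0.0952 in Cy3 alone). Nfkbiz, an NF-kappaB cofactor needed for many secondary response genes, rose by 1.89 ± 0.19, or by 1.06 where its feature of smallest spread stands for the gene, and Stat3 rose by 1.15 ± 0.07. Sp1, a general promoter factor, fell by 0.41 ± 0.03. Socs3, the feedback inhibitor of interleukin-6 signalling, stood at -0.05 ± 0.21 (adjusted p = 0.691). Adjusted p for the other genes named in this paragraph was at most 0.00262.

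Of 26 receptors and binding partners tested, 10 (38.5%) rose and 5 (19.2%) fell, beside 17.3% and 16.8% of all genes. Fpr2, a formyl peptide receptor that also binds serum amyloid A, rose by 2.30 ± 0.03 (limma's adjusted p = 2.43e-06). The Fc receptor genes Fcgr1 and Fcgr2b, whose products bind pentraxins as well as antibody, rose by 2.11 ± 0.10 and 1.29 ± 0.10, while Fcgr3 fell by 0.72 ± 0.32. The feature of smallest spread gave 1.97 for Fcgr2b. Tlr2, which serum amyloid A can engage, rose by 0.54 ± 0.06 and Tlr4, over 2 features, fell by 0.73 ± 0.23. Fcgr3 and Tlr4 did not pass in Cy3 alone (adjusted p of 0.0933 and 0.0612). Tnfaip6, whose product binds Ptx3 in the matrix, rose by 0.43 ± 0.24 (adjusted p = 0.0143), a call lost without set 3 (adjusted p = 0.0647), with the replicate block (0.0926) and in Cy3 alone (0.208). The haptoglobin receptor gene Cd163 had a log2 ratio of -0.08 ± 0.24 over 2 sets (adjusted p = 0.563), and Slc22a17, a lipocalin-2 receptor gene, 0.17 ± 0.13 (adjusted p = 0.0821, with 0.0279 without set 2 and 0.0386 with the replicate block).

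Iron and heme genes, the setting in which Lcn2, Hp and Cp act, rose in 8 of 18 cases (44.4%) and fell in 1. Hmox1, which breaks down heme, rose by 1.00 ± 0.17, Slc11a1, a metal exporter of the phagosome, by 0.87 ± 0.03, and Blvra, the biliverdin reductase, by 0.86 ± 0.04 (SD, n = 3 sets; limma's adjusted p at most 0.000217). Slc40a1, ferroportin, the iron exporter that works with ceruloplasmin, was the 1 that fell, at -0.31 ± 0.08 (adjusted p = 0.0054, with 0.0534 without set 3 and 0.0543 in Cy3 alone). Of 18 neutrophil granule genes, chosen because neutrophils store lipocalin-2 and haptoglobin, 6 (33.3%) rose and 0 fell, beside 17.3% and 16.8% of all genes. Stfa3, a cystatin-type protease inhibitor, rose by 1.80 ± 0.22 (1.00 with zeros kept), and the lysozyme genes Lyz2 and Lyz1, which macrophages also express, by 1.21 ± 0.12 and 1.14 ± 0.05. The other 3 that rose, named after their values were seen, were Stfa1, a further cystatin-type inhibitor (0.76 ± 0.10, n = 2 sets, limma's adjusted p = 0.00112), the neutrophil elastase gene Elane (0.49 ± 0.22, adjusted p = 0.00703) and the gelatinase gene Mmp9 (0.24 ± 0.11, adjusted p = 0.0228). The other 12 lay between -0.07 and 0.13 and did not pass (adjusted p of 0.0594 or more). Among 15 macrophage markers, 6 (40%) rose, led by Fcgr1 and by Msr1, a scavenger receptor (1.31 ± 0.15), and 3 (20%) fell. The largest fall was that of Fcgr3, named above (-0.72 ± 0.32, limma's adjusted p = 0.00529). Csf1r, the receptor for the macrophage growth factor, fell as well (-0.19 ± 0.06, adjusted p = 0.0245). The adjusted p of Csf1r lay between 0.0575 and 0.0902 when 1 set was left out, and was 0.106 in Cy3 alone.

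**Figure D4:**
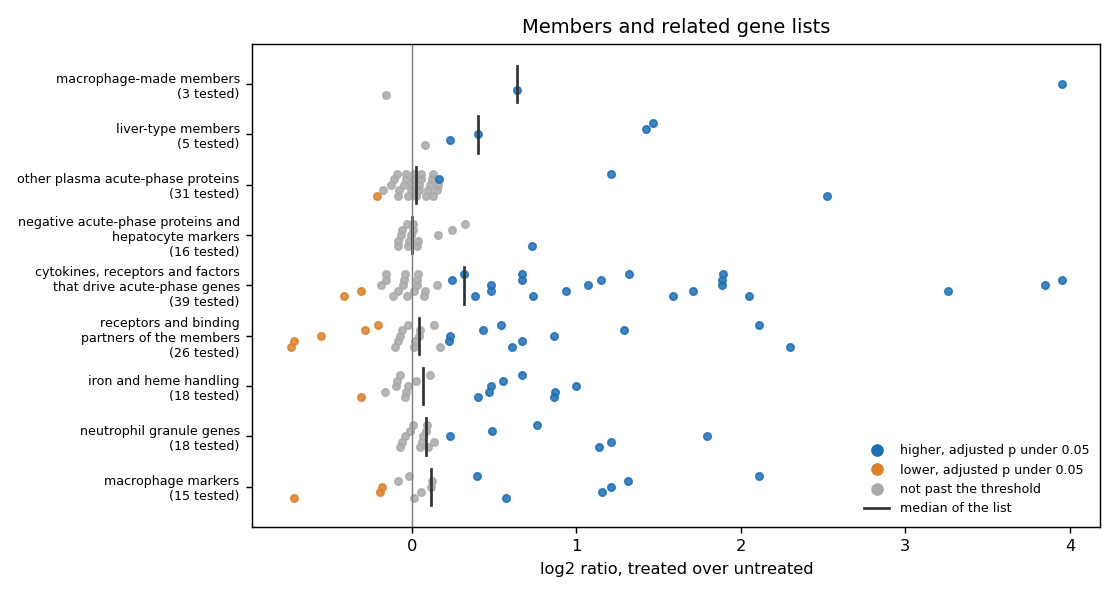
Log2 ratio (treated over untreated, horizontal axis) of each gene tested in the member groups and related lists (vertical axis; points are spread vertically for visibility), coloured by limma's adjusted p and direction, with the list median as a bar. The list labelled as driving acute-phase genes, which also holds inhibitors, has 21 higher genes of 39. The list of other plasma acute-phase genes has 3 of 31.

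The genes whose 6 array values lay nearest to a member were found by the root mean square difference over the 6 arrays, among 9216 other genes measured on all of them. Nearest to Saa3 were Il1rn (0.17), Gm8989 (0.19) and Ccl2 (0.20), the last a chemokine for monocytes. Nearest to Cp were Tnfrsf1b, a receptor for tumour necrosis factor (0.18), the RNA helicase gene Mov10 (0.25) and the MHC class I gene H2-T9 (0.26). Saa1 had Procr, the protein C receptor gene (0.21), Tnfrsf1b (0.24) and the RNA-editing gene Adar (0.24) nearest to it. For Lcn2 these were Aif1 (0.19), Csf2 (0.19) and Isg20 (0.20), and all 3 shared with Lcn2 a highest value on the Cy5 array of set 1. The log2 ratio of Csf2, a growth factor for myeloid cells, was 0.54 over 3 sets and 0.33 without set 1. Stx4a (0.04), Csf2ra (0.06) and Pomp (0.07) were nearest to Hp, and Mindy3 (0.07), St3gal1 (0.08) and Ifna1 (0.09) to Orm1. Small ratios lie close to many others, so a small difference says less for Hp and Orm1 than for Saa3.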

How the data were processed

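The authors deposited 1 log2 ratio per feature and array, for 16281 features. The method of background correction and normalization is not given in the sources used here. For these values the log base was read from the largest value, 6.64, which is log2 of a ratio of 100. Array medians were between 0.00095 and 0.0212 without zeros. Before any turning, arrays of opposite orientation had r of -0.768 to -0.404 over features, so the sign was turned wherever treated RNA was in Cy3. No intensities were used, and precision is limited by the number of arrays.

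Values of exactly 0 (8.16% to 13.9% per array) were treated as not measured. A set mean needed both arrays, and a feature needed 2 set means. A gene took the mean of its features measured on all 6 arrays, or otherwise of those with 2 set means. Features were named from the platform annotation and looked up by RefSeq gene identifier (13694 of 13738 matched), which changed 0 symbols. The set means of 10088 genes and of 14343 features were tested with limma 3.58.1 under R 4.3.3. On simulated set means for 10088 genes, 100% of 50 genes changed by 0.5 on the log2 scale were called, with 13 false calls. These false calls were a larger share of the calls than the threshold is meant to allow. Both counts were the same for changes of 1, 2 and 4, so the simulation does not show how small a change these arrays can detect. The members and lists were chosen with earlier results of these data known. The text names all members, the 3 largest rises and 2 largest falls of each list, 16 genes fixed by name and the 3 nearest genes of each member that passed. Orm2, Orm3, Stfa1, Elane and Mmp9 were named outside this rule, after their values were seen. Alternatives were zeros kept, other units of replication, other normalizations, single dye orientations, sets left out and single features per gene. Promoter sequences are RefSeq's (GRCm38.p6), found for 6 of 8 members.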

Additional observations from a re-analysis of the deposited data

Results flagged for a closer look

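The Saa2 feature 14545 had 1 array far from the other 5. The Cy3 array of set 2 read -0.49, and the others ran from -0.15 to -0.01, so that the gap was 0.706 of the whole range, above Dixon's critical value for 6 values. Such a gap arises by chance in about 1 of 20 groups, and 10 features were examined, over 6 arrays of both orientations together. The same array also gave the lowest values of features 3299 (Cp), 3310 (Ptx3), 4888 (Saa3), 8733 (Saa1) and 5089 (Saa2).

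Saa3 differed between the dye orientations, by 0.647 on the log2 scale (4.27 in Cy5 and 3.63 in Cy3, limma's adjusted p = 0.0479 for the dye term). It was higher on 6 of 6 arrays.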

How the results depend on the processing

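Under the 13 alternatives, Saa3, Saa1, Cp and Hp kept their direction and their side of the threshold. Saa3 ran from 3.63 to 4.27, Saa1 from 1.20 to 1.55, Cp from 1.29 to 1.64 and Hp from 0.21 to 0.53. Between 5 and 6 members were called. Lcn2 lost its call in Cy5 alone (0.71). Orm1 lost it with the replicate block (0.23), in Cy3 alone (0.14) and without set 3 (leaving out each set gave 0.21 to 0.25). Saa2 turned negative in Cy3 alone (-0.024) and with the feature of smallest spread (-0.16), and Ptx3 turned positive without set 2 (leaving out each set gave -0.27 to 0.041). The cause was not tested. Reversals also met genes that were not called: Socs3 in Cy3 alone (0.17) and without set 2 (-0.14 to 0.062 over the sets left out), Cd163 with set means from 1 array (0.00949) and in Cy5 alone (0.14), and Lbp in Cy3 alone (-0.11) and without set 1 or set 3 (-0.086 to 0.22 over the sets left out). Among called genes Nptx2 (-0.22) and Saa4 (0.18) reversed in Cy3 alone. The 3449 genes called became 2033 without set 3 (2033 to 3381 over the sets left out), and the 4690 features became 2956 (2956 to 4822). The 4 calls in the list of other plasma acute-phase genes became 2 with 6 arrays and a dye term, 2 with the replicate block and 2 without set 3 (2 to 6 over the sets left out). The 1 hepatocyte call became 3 with the replicate block, 2 after quantile normalization, 2 in Cy3 alone and 1 to 2 with a set left out, all higher. In Cy5 alone it became 3, of which 1 was higher and the others lower. The 15 receptor and partner calls became 8 in Cy3 alone. With the replicate block 3600 genes were called. Set means average same-numbered arrays so that a dye effect cancels. Once turned, these arrays deviated in opposite directions (r of -0.256, -0.212 and -0.0999), which narrows the spread of set means. Over 6 arrays with a dye term, 6 members were called without the block and 5 with it.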
